A study of Mus musculus with 17 samples.

Results

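Interferon response and MHC class I genes were examined in bulk RNA-seq of pancreatic islets from male mice with altered *Pax4*. The set was defined as a list of 38 mouse genes, and all 38 were found by symbol among the 78239 gene identifiers of the table that holds wildtype and *Pax4* R192H mice and the 73212 identifiers of the table that holds *Pax4* βiKO and control mice. By role, the list held 3 transcription factors, 5 sensors of viral nucleic acid, 17 antiviral effectors and regulators, 6 interferon-inducible GTPases, 5 genes of MHC class I presentation and 2 signalling genes. All 38 passed the filter on low counts in both tables.

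*Pax4* R192H mice are homozygous for a histidine substitution in the endogenous mouse gene, at the residue that corresponds to that of the human variant, and wildtype mice were their littermates on a C57BL/6N background. Islets of these genotypes were taken at 12 weeks of age from mice fed a standard chow diet (SCD) and at 16 weeks from mice fed a high-fat diet (HFD) for 4 weeks, with 3 mice in each of the 4 groups. *Pax4* βiKO mice carried *Pdx1-CreERT2* and floxed *Pax4* on both alleles, so that tamoxifen removed *Pax4* from adult β cells. Their controls were floxed mice without Cre that also received tamoxifen, and both groups were sampled at 20 weeks after HFD for 8 weeks (3 βiKO mice and 2 controls). Diet and age changed together between SCD and HFD groups and cannot be told apart, and the same holds for Cre and the loss of *Pax4* in the βiKO comparison.

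Type I interferons bind a receptor on the cell surface and activate STAT2 and IRF9, which act at interferon-stimulated response elements (ISREs) in the promoters of antiviral genes. Interferon-γ acts at gamma-activated sequence (GAS) elements and through IRF1, and it induces GTPases and the machinery that loads peptides on MHC class I. In islets these genes are known from viral infection and from autoimmune diabetes, where β cells show high MHC class I, but islet macrophages, B cells and endothelial cells express them too. In bulk RNA, fewer cells of a type and less RNA per cell cannot be told apart.

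The promoters show what the members have in common at the level of sequence. A window of 300 bases around the annotated start (RefSeq, GRCm38.p6) was at hand for 29 of the 38 members, some of which have more than 1 start (32 windows). The ISRE core GAAANNGAAA, searched on both strands, was found in at least 1 window of 19 of these 29 members (65.5%) and of 3.99% of the 27025 genes with a window. All 5 GTPases with a window and all 3 such sensors held a match, as did 8 of 12 effectors, but only *Stat2* among the 3 factors, *B2m* among 4 MHC class I genes and *Cxcl10* among the 2 signalling genes. The GAS core TTCNNNGAA was found in 6 of the 29 members (20.7%) and in 9.55% of all genes with a window. A match describes the letters and is not a measured binding site. For 8 members that the results below return to, 1 match each is shown in the direction of the gene (*Ifit1*, *Ifit3* and *Ifit3b* held 2 matches and *Isg15* held 3), with the match (or its reverse complement) in capitals:

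*Ifit1*, chr19:34640794-34640823, + strand: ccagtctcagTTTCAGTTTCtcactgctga

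*Ifit3*, chr19:34583397-34583426, + strand: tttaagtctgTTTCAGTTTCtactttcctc

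*Ifit3b*, chr19:34607793-34607822, + strand: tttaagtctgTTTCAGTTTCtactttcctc

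*Isg15*, chr4:156200871-156200900, − strand: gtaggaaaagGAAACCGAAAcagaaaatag

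*Stat2*, chr10:128270266-128270295, + strand: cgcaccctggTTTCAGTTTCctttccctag

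*Gbp7*, chr3:142530273-142530302, + strand: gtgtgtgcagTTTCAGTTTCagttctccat

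*B2m*, chr2:122147538-122147567, + strand: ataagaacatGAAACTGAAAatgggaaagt

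*Cxcl10*, chr5:92349083-92349112, − strand: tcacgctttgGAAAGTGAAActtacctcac

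The *Ifit3* and *Ifit3b* stretches are the same 30 letters, and the transcripts of this gene pair are also alike: 51.2% of the 50-base words of the longest *Ifit3* transcript occur in *Ifit3b*. *Oas1a* shares 57.6% of its words with *Oas1g*, *H2-D1* shares 14.3% with other genes (most with *H2-Q1*), *Rtp4* shares 13.6% with the overlapping *Gm45338*, *Gbp7* shares 12.8% (most with *Gm43802*, a pseudogene that overlaps it on the same strand), *Igtp* shares 12.3% with the overlapping *Irgm2*, and *H2-K1* shares 8.79%. The counts of these genes depend on how reads were divided between the copies. *Irf9* overlaps *Rnf31* on the same strand.

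Total counts per mouse were 24268200 to 42679700 in the R192H table and 28618800 to 31887500 in the βiKO table, where 3 counts correspond to 0.0724 to 0.126 and 0.0907 to 0.112 CPM (counts scaled to a common library size). *Ins2*, which encodes insulin, was at 14502 to 46018 CPM and 59492 to 69142 CPM in the 2 tables. The row of the *Pax4* identifier held 0 counts in all 17 mice, so the tables give no check of the genotype labels. The authors' annotation release is not known, *Pax4* may have been counted under another identifier, and the 0 is not read as a level of *Pax4*. Acinar markers (20 genes, summed) lay between 15078 and 121016 CPM and were highest in HFD-fed *Pax4* R192H mice (42969 to 113037 CPM) within the R192H table. The tables were normalised separately, and levels are compared only within each.

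Within every group *H2-K1*, *H2-D1* and *B2m*, which encode classical MHC class I heavy chains and their shared light chain, stood at the top of the list per length of transcript. In SCD-fed wildtype mice *H2-K1* was at 122 ± 14.1 CPM per kb (SD, n = 3), *H2-D1* at 81.4 ± 8.06 and *B2m* at 67.2 ± 12.8. *Usp18*, which encodes a protease that removes ISG15 and dampens receptor signalling, came next at 10.5 ± 3.26 CPM per kb. The lowest members per length were *Zbp1*, a sensor of Z-form nucleic acid, *Nlrc5*, the transactivator of MHC class I genes, and *Oas3*, an oligoadenylate synthetase, at 0.309 ± 0.121, 0.308 ± 0.0774 and 0.103 ± 0.0593 CPM per kb. *H2-K1* and *H2-D1* differed by more than the sum of their SDs in these mice, whereas *H2-D1* and *B2m* did not differ beyond the sum of their SDs and *Zbp1* and *Nlrc5* did not differ beyond their spread.

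Single mice set much of the pattern, and the heat map of all members by mouse shows it before any group is compared. Of the 12 mice of the R192H table, SCD-fed wildtype mouse 3 had the highest value for 28 of 38 members, against 3.56% of all genes tested. Mouse 1 of the SCD-fed *Pax4* R192H group was the highest there for 34 members (29.8% of all genes), and HFD-fed wildtype mouse 2 led its group for 31 (32.1% of all genes). βiKO mouse 3 was highest of its group for 35 members, against 36.9% of all genes. The members varied more between mice of a group than genes in general: the median range on the log2 scale was 0.91 in SCD-fed wildtype mice (0.57 for all genes), 0.87 in HFD-fed wildtype mice (0.58), 0.98 and 0.68 in *Pax4* R192H mice on SCD and HFD (0.52 and 0.44), 0.25 in controls (0.19) and 0.60 in βiKO mice (0.37).

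**Figure D1:**
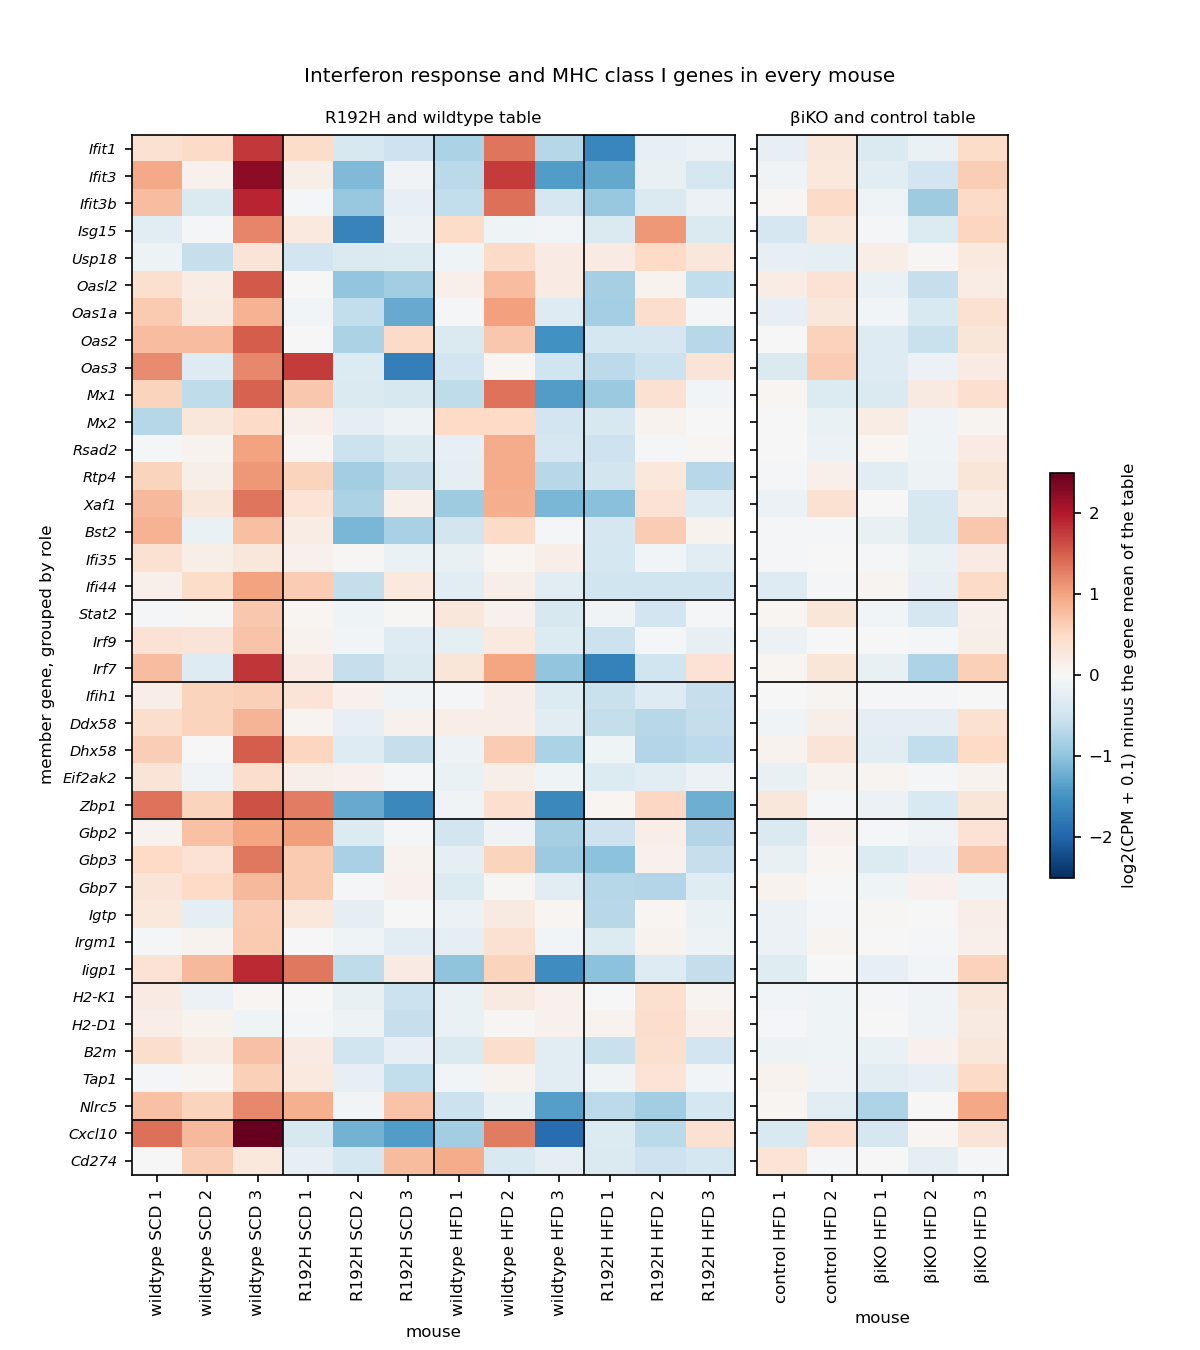
Level of each member (rows, grouped by role with transcription factors, sensors, GTPases, MHC class I and signalling genes below the effectors) in each mouse (columns), as log2(CPM + 0.1) minus the mean of the gene over its table. SCD-fed wildtype mouse 3 is highest of 12 mice for 28 of 38 members, and βiKO mouse 3 is highest of its group for 35.

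The marker genes of immune cells were not even across the groups either. The summed level of 15 macrophage markers was 118 to 177 CPM in SCD-fed wildtype mice and 79.5 to 85.0 CPM in SCD-fed *Pax4* R192H mice, and 81.5 to 91.1 and 72.3 to 101 CPM in the HFD-fed groups of the same genotypes. Summed B cell markers (8 genes) reached 93.6 CPM in SCD-fed wildtype mouse 3, 33.8 CPM in mouse 1 of that group, 31.9 CPM in HFD-fed *Pax4* R192H mouse 1, 110.0 CPM in βiKO mouse 3 and 58.5 CPM in control mouse 1, while SCD-fed *Pax4* R192H mice 2 and 3 were at 1.29 and 1.41 CPM. T and NK cell markers (14 genes) summed to at most 3.33 CPM in the R192H table and 6.71 CPM in the βiKO table, and dendritic cell markers (7 genes) to at most 11.9 and 22.2 CPM. Thus the mouse with the highest member levels in the R192H table also had the most B cell marker RNA, and so did the mouse with the highest member levels in the βiKO table. HFD-fed wildtype mouse 2, which led its group in 31 members, had the least B cell marker RNA of that group (1.54 CPM), and control mouse 1, with more of it than control mouse 2 (9.48 CPM), led its pair in 11 members against 27.

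**Figure D2:**
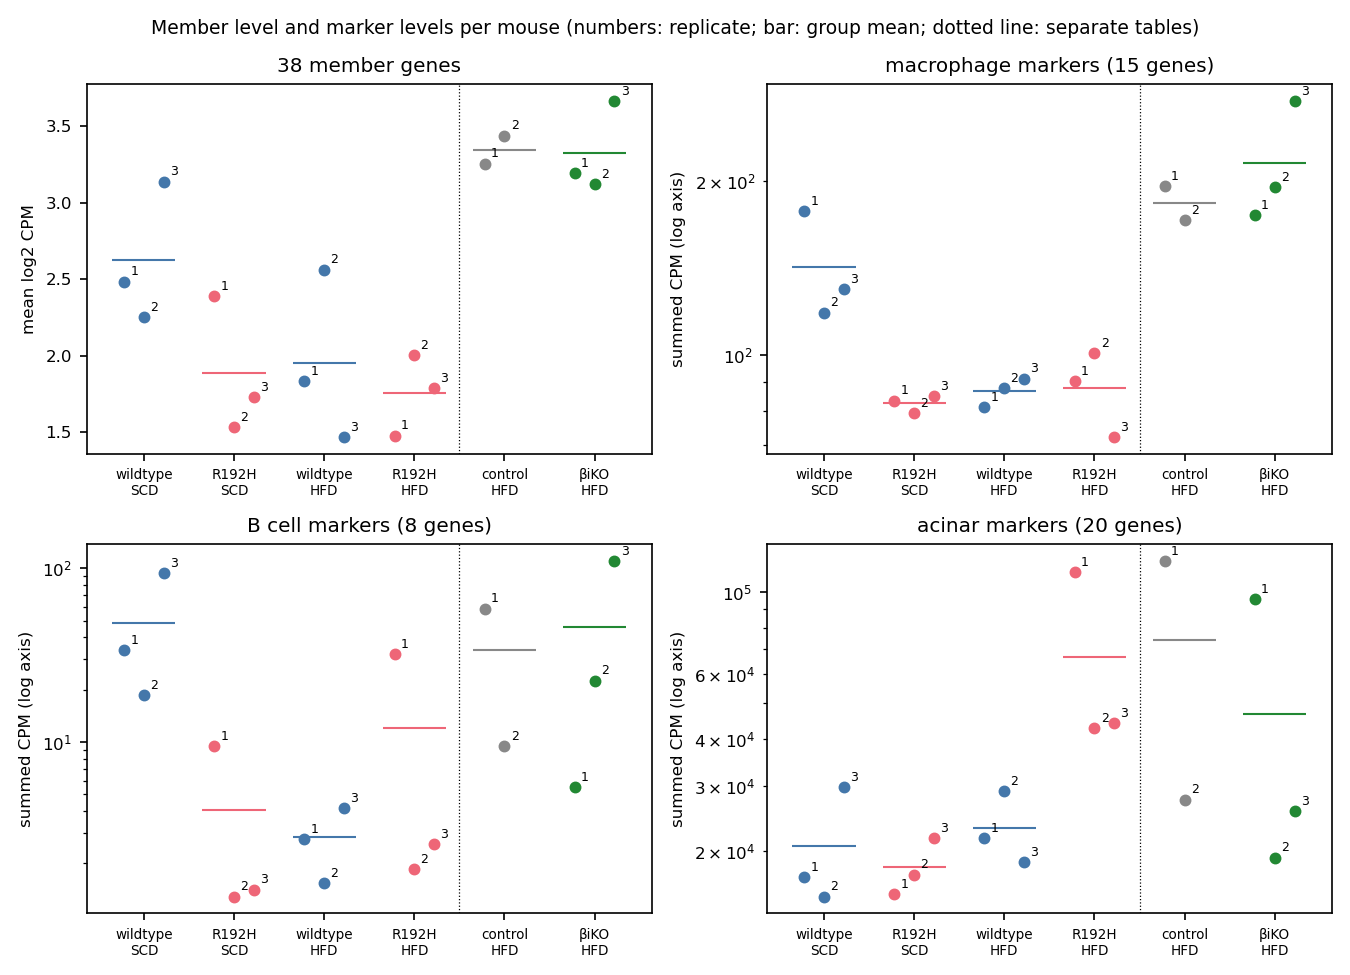
Mean log2 CPM of the 38 members and summed CPM of macrophage, B cell and acinar markers (log axes), with 1 point per mouse labelled by replicate number and a bar at the group mean. Macrophage markers of the 3 SCD-fed wildtype mice lie above those of the 9 other mice of the R192H table, and B cell markers peak in SCD-fed wildtype mouse 3 and in βiKO mouse 3.

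In SCD-fed mice, the comparison of *Pax4* R192H with wildtype addresses the effect of the variant without metabolic stress. All 38 members had a log2 fold change below 0, with a median of −0.63 against −0.00 over the 19137 genes tested, of which 50.7% were below 0. A gene was called if edgeR's quasi-likelihood test gave an adjusted p below 0.05 and a log2 fold change beyond 0.5 in either direction, which held for no member and for no other gene (0% of all genes). At an unadjusted p below 0.05, 9 members were lower, and so were 2.19% of all genes. The DESeq2 test called 1 member, *Cxcl10*, against 0.105% of the genes to which it gave an adjusted p, and edgeR without the filter on low counts called 10, against 0.655% of all genes. In 7 members the *Pax4* R192H mice lay below all wildtype mice, as they did in 4.22% of all genes.

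The factors and sensors differed by unequal amounts. *Irf9*, the DNA-binding subunit of the interferon-stimulated complex, was at 11.4, 11.05 and 14.6 CPM in wildtype mice and 9.48, 8.40 and 7.10 CPM in *Pax4* R192H mice. The groups did not overlap, and the log2 fold change was −0.57 ± 0.20 (SE). *Irf7*, which amplifies interferon production, was at −1.23 ± 0.59 with wildtype values from 2.57 to 11.5 CPM, and *Stat2* was at −0.28 ± 0.23. *Ddx58*, which encodes the RNA sensor RIG-I, was at 15.9, 17.2 and 21.2 CPM in wildtype mice and 12.2, 10.1 and 12.6 CPM in *Pax4* R192H mice. Its groups were apart and its log2 fold change was −0.64 ± 0.16, with an adjusted p of 0.924 in edgeR, the lowest of the members. *Ifih1*, encoding the related sensor MDA5, was at −0.33 ± 0.17, and the groups overlapped. *Eif2ak2*, the kinase PKR that halts translation on double-stranded RNA, was nearest to 0 at −0.17 ± 0.15.

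Among the effectors, the largest differences were in *Ifit3*, *Ifit3b* and *Oasl2*. *Ifit3*, whose product binds to viral RNA complexes with IFIT1, was at 7.55, 4.18 and 18.8 CPM in wildtype and 4.30, 1.76 and 3.66 CPM in *Pax4* R192H mice (log2 fold change −1.65 ± 0.72). The lowest wildtype mouse lay under the highest *Pax4* R192H mouse, and mouse 3 carried the wildtype mean. Its near copy *Ifit3b* was at −1.45 ± 0.60, and *Ifit1* at −1.12 ± 0.59. *Oasl2*, an oligoadenylate synthetase-like gene, was at 3.87, 3.33 and 8.62 CPM in wildtype and 2.95, 1.42 and 1.57 CPM in *Pax4* R192H mice, with groups that did not overlap and a log2 fold change of −1.41 ± 0.40. *Bst2*, which encodes the virus-tethering protein tetherin, was at −1.04 ± 0.40, and the ubiquitin-like *Isg15*, at 0.0263 to 0.845 CPM over both groups, was at −1.03 ± 0.84. *Mx2*, an antiviral GTPase gene that is defective in C57BL/6 mice, was at −0.18 ± 0.37.

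The chemokine gene *Cxcl10*, which attracts T cells, had the largest difference of the list. It was at 1.89, 1.23 and 5.65 CPM in wildtype mice and 0.483, 0.237 and 0.191 CPM in *Pax4* R192H mice. The 3 wildtype mice were above all *Pax4* R192H mice, with a log2 fold change of −3.23 ± 0.87. *Zbp1* was at −1.41 ± 1.23, but 1 of the 3 *Pax4* R192H mice had a count of 0 and another was under the level of 3 counts. *Cd274*, encoding PD-L1, was at −0.18 ± 0.37.

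The GTPases and MHC class I genes had smaller log2 fold changes. Over the 6 GTPases, the log2 fold change had a median of −0.35 and went from −0.71 (*Gbp3*) to −0.25 (*Igtp*). Over the 5 MHC class I genes the median was −0.30, with *B2m* lowest at −0.61 ± 0.28 (57.8 ± 10.97 CPM in wildtype and 37.9 ± 9.43 CPM in *Pax4* R192H mice). *H2-K1* was at 219, 174 and 199 CPM in wildtype and 189, 169 and 132 CPM in *Pax4* R192H mice, with overlapping groups and a log2 fold change of −0.27 ± 0.17. *H2-D1*, *Tap1* (a subunit of the peptide transporter) and *Nlrc5* were at −0.28 ± 0.16, −0.38 ± 0.24 and −0.30 ± 0.38.

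These SCD values rest in part on 1 mouse, and marker genes also differed between the groups. Without SCD-fed wildtype mouse 3, 33 members were below 0 and 5 above, with a median of −0.26 and 3 at an unadjusted p below 0.05, whereas without SCD-fed *Pax4* R192H mouse 1 all 38 were below 0, with a median of −0.88 and 21 at that level. All 15 macrophage markers and all 7 MHC class II genes were lower in SCD-fed *Pax4* R192H mice, with medians of −0.56 and −0.57 and none called, and 7 of 7 tested B cell markers were lower, 6 of them at an unadjusted p below 0.05. The summed B cell level was 18.7 to 93.6 CPM in wildtype and 1.29 to 9.48 CPM in *Pax4* R192H mice, and *Ighm*, the immunoglobulin heavy chain μ gene, was at −5.03 ± 0.95. Dendritic cell markers were lower in 4 of 6 tested (median −1.10, 3 at an unadjusted p below 0.05). Stromal markers (fibroblast and pericyte genes) were lower in 9 of 9, with a median of −0.60 and none at an unadjusted p below 0.05. The part of B cell, dendritic cell and stromal RNA in the member levels was not tested. With the mean log2 CPM of the macrophage markers as a covariate, 32 members were below 0 and 6 above, and the median was −0.34. This mean was higher in every SCD-fed wildtype mouse than in every other mouse of the table, so covariate and group largely cannot be told apart. Within the wildtype group it was lowest in mouse 3 (2.04, against 2.41 and 2.10 in mice 1 and 2).

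The same genotype comparison was made under HFD. Of the members, 29 were below 0 and 9 above, with a median log2 fold change of −0.28 against −0.01 for all genes, of which 51.4% were below 0. None was called by edgeR, although 2.28% of all genes were, and 2 members (*Ddx58* and *Ifih1*) were lower at an unadjusted p below 0.05, against 6.98% of all genes. DESeq2 called 1 member, *Ddx58*, of the 37 to which it gave an adjusted p, against 5.28% of all such genes. In 3 members, *Ddx58*, *Oasl2* and *Ifi44*, the *Pax4* R192H mice lay below all wildtype mice (9.89% of all genes).

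*Ddx58* was at 13.2, 13.1 and 9.56 CPM in HFD-fed wildtype and 7.66, 7.22 and 7.68 CPM in HFD-fed *Pax4* R192H mice. The *Pax4* R192H mice were tightly grouped below the lowest wildtype mouse, with a log2 fold change of −0.67 ± 0.17 and an adjusted p of 0.0552 in edgeR. *Ifih1* was at −0.42 ± 0.17 and overlapped by a narrow margin: the highest *Pax4* R192H mouse was at 11.2 CPM and the lowest wildtype mouse at 11.1 CPM. The factors *Irf7*, *Stat2* and *Irf9* were at −0.70 ± 0.60, −0.22 ± 0.24 and −0.15 ± 0.20.

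The lowest log2 fold changes under HFD were those of *Ifit3* (−1.12 ± 0.73), *Ifit3b* (−0.89 ± 0.61), *Ifit1* (−0.83 ± 0.60) and *Oasl2* (−0.82 ± 0.41). *Ifit3* was at 2.40, 13.2 and 1.41 CPM in wildtype and 1.54, 3.40 and 2.84 CPM in *Pax4* R192H mice. Wildtype mouse 2 alone was above the *Pax4* R192H mice, mouse 1 was within their range and mouse 3 just below it. Without that mouse the count of members below 0 went from 29 to 13, and the median of the list changed sign to 0.14, the upper end of a range over the 6 removals of a mouse that began at −0.51 (without wildtype mouse 3). In *Oasl2* the margin was small, with wildtype mice at 3.20, 5.05 and 3.41 CPM and *Pax4* R192H mice at 1.61, 3.11 and 1.88 CPM.

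The highest log2 fold changes were close to 0: *H2-D1* at 0.23 ± 0.16, *Zbp1* at 0.23 ± 1.33, *Isg15* at 0.20 ± 0.84 and *Tap1* at 0.15 ± 0.24. *H2-K1* was at 171, 222 and 205 CPM in wildtype mice and at 189.8, 253 and 200.4 CPM in *Pax4* R192H mice, so the groups overlapped (0.11 ± 0.17). *B2m*, *Nlrc5* and *Bst2* were at −0.13 ± 0.28, −0.02 ± 0.41 and 0.12 ± 0.39. *Gbp2*, *Igtp* and *Irgm1* went from −0.30 to 0.12, *Cxcl10* was at −0.26 ± 0.84 and *Cd274* at −0.68 ± 0.37. Of the macrophage markers 8 were higher and 7 lower here, with a median of 0.04, whereas acinar markers were higher in 20 of 20 and 5 of them were called, and stromal markers were higher in 9 of 9 with a median of 0.26 and no call. B cell markers were higher in 6 of 7 tested without a call, 2 of 10 β cell markers were called lower, and 2 of 6 α cell and 1 of 8 duct markers were called higher. With the mean log2 CPM of the acinar markers as a covariate the median of the members was −0.48, and 31 were below 0.

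**Figure D3:**
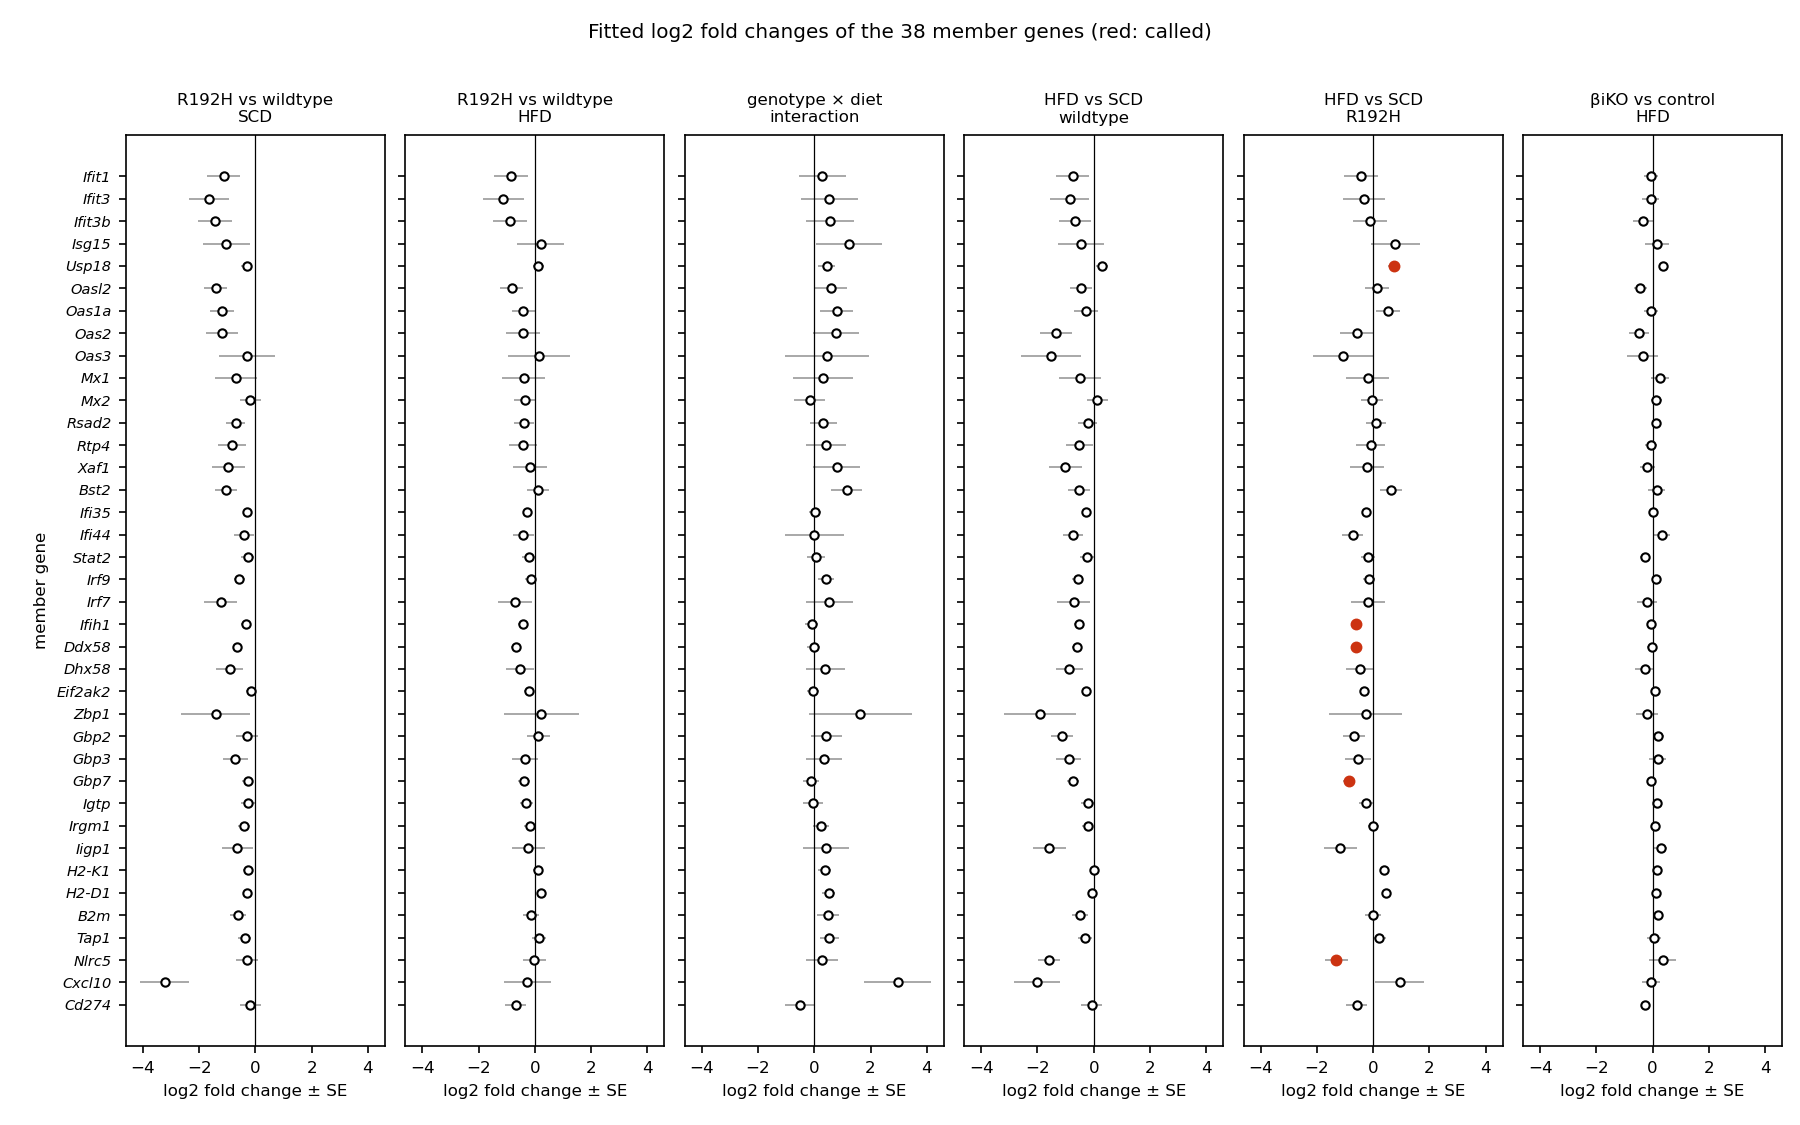
Fitted log2 fold change of every member (rows) in 6 comparisons (panels), with the standard error as a bar. Called members are filled in red: 5 in the diet comparison of *Pax4* R192H mice and 0 in the other panels, and all 38 points lie below 0 in the genotype comparison on SCD.

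The interaction term asks whether the genotype difference changed between SCD and HFD. It was above 0 for 31 members and below 0 for 7, with a median of 0.41 against −0.01 for all genes, of which 49.2% were above 0. No member was called by edgeR or by DESeq2 (0.131% of all genes in edgeR and 1.54% in DESeq2), and 2 were above 0 at an unadjusted p below 0.05, as were 6.84% of all genes. These were *Cxcl10* (2.97 ± 1.19, adjusted p = 0.362 in edgeR) and *H2-D1* (0.52 ± 0.23, adjusted p = 0.411 in edgeR). *Zbp1* (1.64 ± 1.82), *Isg15* (1.24 ± 1.19) and *Bst2* (1.15 ± 0.56) followed *Cxcl10* in size. The lowest terms were those of *Cd274* (−0.51 ± 0.52), *Mx2* (−0.17 ± 0.54), *Gbp7* (−0.12 ± 0.30) and *Ifih1* (−0.09 ± 0.24). The terms of *Stat2*, *Irf9*, *Irf7*, *Ifit1*, *Ifit3*, *Oasl2*, *Gbp2*, *Igtp*, *Irgm1*, *H2-K1*, *B2m*, *Tap1* and *Nlrc5* lay between −0.04 and 0.58. The median depended on single mice and went from −0.00 without SCD-fed wildtype mouse 3 (19 members above and 19 below 0) to 0.77 without HFD-fed wildtype mouse 2 (36 above 0, 6 at an unadjusted p below 0.05), and it was 0.75 without SCD-fed *Pax4* R192H mouse 1 and 0.13 without HFD-fed wildtype mouse 3. The term was above 0 for marker genes too: 20 of 20 acinar (median 1.72), 15 of 15 macrophage (0.64), 7 of 7 MHC class II (0.63), 9 of 9 stromal (0.92) and 7 of 7 tested B cell markers, 5 of the last at an unadjusted p below 0.05 and none of these called. The median B cell term (7.25) was the largest of these, but it rests on genes at or near a count of 0 in some groups. With the macrophage covariate the median of the members was 0.16, with 24 above 0, and with the acinar covariate it was 0.03, with 20 above and 18 below 0. Macrophage markers were highest in the SCD-fed wildtype mice and acinar markers in the HFD-fed *Pax4* R192H mice. These covariates and the groups therefore largely cannot be told apart, and no gene was called with either. Without the filter on low counts *Cxcl10* was called in the interaction (2.98 ± 0.74, adjusted p = 0.00658 in edgeR, with 1.78% of all genes called), and in the other alternatives its adjusted p was between 0.0707 and 1.

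In wildtype mice, HFD (at 16 weeks) was compared with SCD (at 12 weeks). This comparison uses the same 3 SCD-fed wildtype mice as the genotype comparison on SCD. The log2 fold change was below 0 for 35 members and above 0 for 3, with a median of −0.52 against 0.01 for all genes, of which 48.9% were below 0. None was called by edgeR (0.371% of all genes were), 9 were lower at an unadjusted p below 0.05 (8.37% of all genes), and DESeq2 called 3 (*Ddx58*, *Gbp7* and *Nlrc5*), against 2.55% of all genes. In 8 members the HFD-fed mice lay below all SCD-fed mice, against 9.46% of all genes.

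*Nlrc5* was at 2.12, 1.88 and 2.99 CPM on SCD and 0.826, 1.09 and 0.417 CPM on HFD. The diets were well apart, and the log2 fold change was −1.59 ± 0.40 (adjusted p = 0.0963 in edgeR). The MHC class I heavy chain genes that NLRC5 is known to activate did not go with it in size, since *H2-K1* was at 0.02 ± 0.17 and *H2-D1* at −0.06 ± 0.16. *B2m* was at −0.49 ± 0.28 and *Tap1* at −0.31 ± 0.24.

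The GTPases had the lowest median of the roles with over 2 genes (−0.82). *Gbp7*, a guanylate-binding protein gene, was at 10.7, 12.0 and 14.97 CPM on SCD and 6.72, 8.77 and 7.06 CPM on HFD, with groups apart and a log2 fold change of −0.74 ± 0.21. *Gbp2* was at −1.13 ± 0.39 and its groups were apart as well, whereas those of *Iigp1* (−1.58 ± 0.58) overlapped. *Igtp* and *Irgm1*, both immunity-related GTPases, were at −0.22 ± 0.24 and −0.22 ± 0.20.

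Of the sensors, *Ddx58* was at −0.60 ± 0.16 and *Ifih1* at −0.51 ± 0.17, and the HFD-fed mice were below all SCD-fed mice in both. *Irf9* was at −0.57 ± 0.20 with HFD values of 7.44, 10.6 and 6.98 CPM. *Irf7* and *Stat2* were at −0.71 ± 0.58 and −0.24 ± 0.23. *Cxcl10* had the lowest value (−2.03 ± 0.81), with 0.320, 1.77 and 0.104 CPM on HFD and an overlap through mouse 2, and *Zbp1* was at −1.91 ± 1.27. The effectors *Ifit1*, *Ifit3*, *Isg15*, *Oasl2* and *Bst2* went from −0.86 to −0.45 and their groups overlapped. Above 0 were *Usp18* (0.29 ± 0.20), *Mx2* (0.13 ± 0.37) and *H2-K1*. *Cd274* was at −0.08 ± 0.37.

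Macrophage markers were lower on HFD in wildtype mice in 14 of 15 genes, and 2 of them, *Lyz2* (−2.23 ± 0.31, adjusted p = 0.0112 in edgeR) and *Ptprc* (−1.90 ± 0.26, adjusted p = 0.0112 in edgeR), fell. Stromal markers were lower in 9 of 9 (median −1.74, 6 at an unadjusted p below 0.05 and none called), MHC class II genes in 7 of 7 (median −0.48, with *H2-Aa* called at −0.85 ± 0.17), dendritic cell markers in 6 of 6 tested (median −1.18) and B cell markers in 7 of 7 tested, the last 2 lists without a call. The part of these other cell types in the member levels was not tested. With the mean log2 CPM of the macrophage markers as a covariate, 23 members were below 0 and 15 above, with a median of −0.23. Without SCD-fed wildtype mouse 3 the median was −0.17 and 27 were below 0, whereas without HFD-fed wildtype mouse 2 it was −0.80, with 36 below 0 and 20 at an unadjusted p below 0.05.

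The diet comparison in *Pax4* R192H mice was the only one in which edgeR with the filter on low counts called members. *Usp18* rose, and *Ddx58*, *Ifih1*, *Gbp7* and *Nlrc5* fell on HFD, which makes 5 of 38 members against 15.7% of all genes. By direction, 9.75% of all genes rose and 5.91% fell. In all, 27 members were below 0 and 11 above, with a median of −0.21 against −0.06 for all genes, of which 53.6% were below 0. The diets did not overlap in 3 members that were higher and 5 that were lower on HFD, against 21.3% and 20.6% of all genes. In wildtype mice *Ddx58*, *Ifih1* and *Gbp7* were lower on HFD by similar log2 fold changes, and *Nlrc5* by a larger one. *Usp18* was above 0 there by less. None of these was called by edgeR in wildtype mice, where 0.371% of all genes were, and no member was called in the interaction.

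*Usp18* (chr6:121245906-121270917 in GRCm38, + strand) was at 14.1, 15.2 and 15.6 CPM on SCD and 22.6, 27.9 and 23.8 CPM on HFD. The diets were apart, and the log2 fold change was 0.72 ± 0.21 (adjusted p = 0.0288 in edgeR). No other effector was called: *Isg15*, which encodes the protein that the USP18 protease removes from its targets, was at 0.79 ± 0.86, *Bst2* at 0.63 ± 0.40, *Oasl2* at 0.14 ± 0.41, *Ifit3* at −0.32 ± 0.74, *Ifit1* at −0.45 ± 0.60 and *Oas3* at −1.08 ± 1.07.

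Of the 3 RNA helicase sensors, *Ddx58* and *Ifih1* fell, and *Dhx58* (LGP2) was at −0.48 ± 0.50 with overlapping groups. *Ddx58* (chr4:40203773-40239828, − strand) went from 12.2, 10.1 and 12.6 CPM on SCD to 7.66, 7.22 and 7.68 CPM on HFD (−0.63 ± 0.17, adjusted p = 0.0211 in edgeR). *Ifih1* (chr2:62595798-62646255, − strand) went from 17.6, 15.1 and 13.2 CPM to 9.48, 11.2 and 9.44 CPM (−0.61 ± 0.17, adjusted p = 0.0281 in edgeR). In *Ddx58* and *Ifih1* every HFD-fed mouse was below every SCD-fed mouse. No factor was called, with *Stat2*, *Irf9* and *Irf7* between −0.18 and −0.16.

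*Gbp7* (chr3:142530342-142550149, + strand) was at 13.5, 8.34 and 9.28 CPM on SCD and 5.15, 5.08 and 6.88 CPM on HFD, a log2 fold change of −0.86 ± 0.21 (adjusted p = 0.0154 in edgeR). SCD mouse 1 stood above the rest, but all SCD-fed mice were above all HFD-fed mice. *Gbp2*, *Igtp* and *Irgm1* were at −0.70 ± 0.39, −0.26 ± 0.24 and 0.01 ± 0.21, and *Iigp1* at −1.17 ± 0.58.

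The MHC class I genes split. *Nlrc5* (chr8:94434356-94527272, + strand) fell from 2.39, 1.18 and 2.10 CPM on SCD to 0.751, 0.629 and 0.895 CPM on HFD (−1.31 ± 0.40, adjusted p = 0.0406 in edgeR). *H2-D1* was at 162, 150.3 and 110.1 CPM on SCD and 176, 224 and 179.6 CPM on HFD, so all HFD-fed mice were above all SCD-fed mice (0.46 ± 0.16, adjusted p = 0.0642 in edgeR, not called). *H2-K1* was also higher in every HFD-fed mouse, by a margin of under 1 CPM between the nearest pair (0.39 ± 0.17, adjusted p = 0.12 in edgeR). *B2m* was at −0.01 ± 0.28 and *Tap1* at 0.22 ± 0.24. *Cxcl10* was at 0.94 ± 0.88 and *Cd274* at −0.59 ± 0.38.

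**Figure D4:**
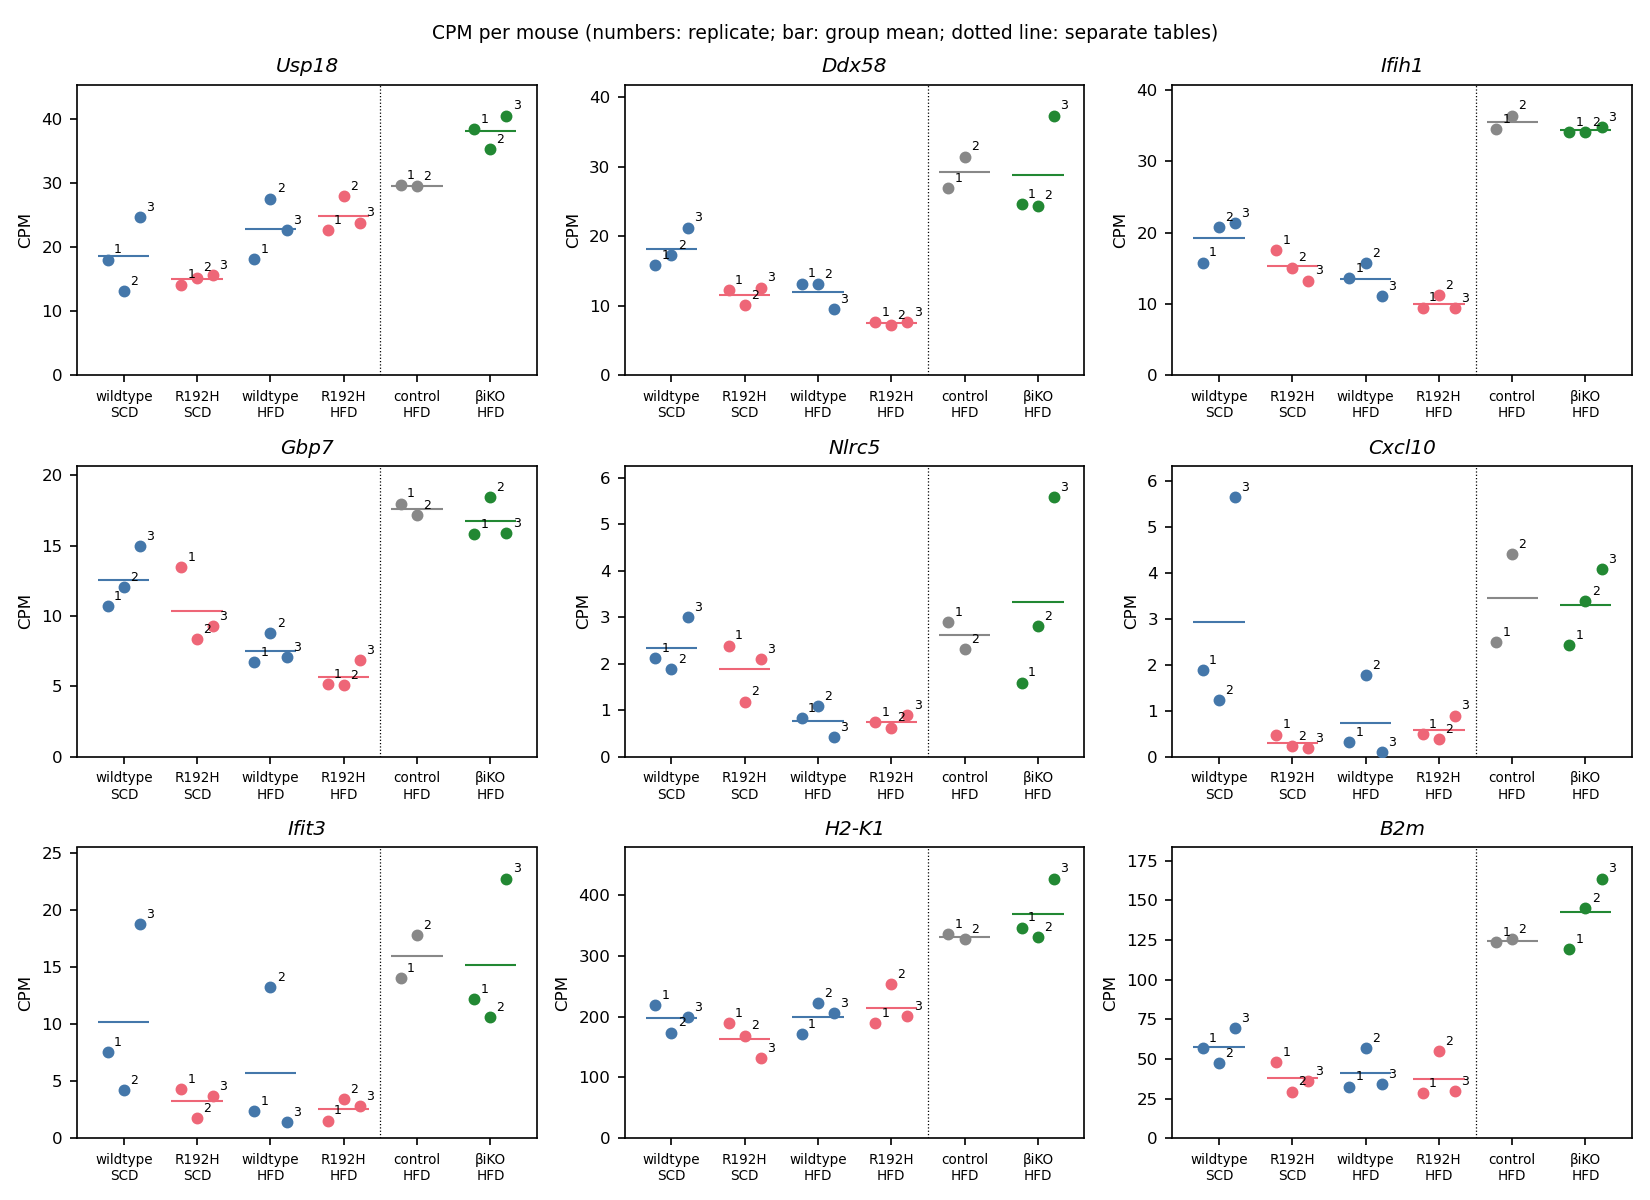
CPM per mouse of the 5 members called in the diet comparison of *Pax4* R192H mice (*Usp18*, *Ddx58*, *Ifih1*, *Gbp7*, *Nlrc5*) and of *Cxcl10*, *Ifit3*, *H2-K1* and *B2m*, with replicate numbers beside the points and bars at the group means. *Ddx58* lies between 7.22 and 7.68 CPM in HFD-fed *Pax4* R192H mice, below the other 9 mice of its table, and *Ifit3* is carried by wildtype mouse 3 on SCD and mouse 2 on HFD.

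The log2 fold changes of these 5 members kept their direction when 1 mouse at a time was left out, while the calls did not hold. *Usp18* stayed between 0.63 and 0.79, *Ddx58* between −0.69 and −0.56, *Ifih1* between −0.70 and −0.47, *Gbp7* between −1.02 and −0.59 and *Nlrc5* between −1.52 and −1.06. When 1 mouse at a time was left out, between 0 and 3 members were called, with 0 after removal of SCD mouse 1 or HFD mouse 2, 1 without HFD mouse 1 or 3, 2 without SCD mouse 3 and 3 without SCD mouse 2, while 8.38% to 11.2% of all genes were called. The median of all members went from −0.37 without HFD mouse 2 to 0.09 without SCD mouse 1. Acinar markers rose in 20 of 20 genes, with a median of 1.88, and their sum was above that of the 9 other mice of the table in all 3 HFD-fed mice, so that covariate and group largely cannot be told apart. With the mean log2 CPM of these markers as a covariate no member was called by edgeR (0.146% of all genes), 5 were at an unadjusted p below 0.05, and *Usp18* was at 0.39 ± 0.37, *Ddx58* at −1.002 ± 0.29, *Ifih1* at −0.67 ± 0.33, *Gbp7* at −0.94 ± 0.41 and *Nlrc5* at −2.05 ± 0.73. Of these 5 log2 fold changes, that of *Usp18* was nearer to 0 with the covariate and the others were farther from it, all with larger standard errors. Stromal markers were lower in 7 of 9 (median −0.90, none called), and 2 B cell markers were called higher. Of the 10 β cell markers 3 were called higher and 2 lower, of 8 duct markers 3 higher, of 6 α cell markers 2 higher, of 9 endothelial markers 1 higher, and of 4 δ and PP cell markers none. Macrophage markers were not called (6 higher and 9 lower), and with them as a covariate, where 13% of all genes were called, *Usp18*, *Ddx58* and *Gbp7* remained called, while *Ifih1* (−0.61 ± 0.20, adjusted p = 0.0594 in edgeR) and *Nlrc5* (−1.32 ± 0.50, adjusted p = 0.0979 in edgeR) kept their log2 fold changes with larger errors.

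In βiKO mice on HFD, the fold changes of the members centred near 0. There were 20 above and 18 below 0, with a median of 0.04 against 0.01 over the 20167 genes tested, of which 51.5% were above 0. No member was called by edgeR (0.0893% of all genes were) or, among the 32 with an adjusted p, by DESeq2 (2.02%), and 1 had an unadjusted p below 0.05, against 6.23% of all genes that were higher at that level. In 2 members, *Usp18* and *Igtp*, the βiKO mice lay above both controls, which holds for 15.9% of all genes.

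*Usp18* was at 29.6 and 29.5 CPM in controls and 38.3, 35.3 and 40.5 CPM in βiKO mice, with a log2 fold change of 0.36 ± 0.09 (adjusted p = 0.246 in edgeR). *Igtp* was at 16.5 and 17.8 CPM in controls and 18.8, 18.4 and 20.5 CPM in βiKO mice (0.17 ± 0.11). *Nlrc5* was at 2.90 and 2.32 CPM in controls and 1.59, 2.81 and 5.58 CPM in βiKO mice, with the controls inside the range of the βiKO mice (0.36 ± 0.48). *Ifi44*, an interferon-inducible gene, and *Iigp1* were at 0.32 ± 0.29 and 0.29 ± 0.24.

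The lowest values were those of *Oas2* (−0.48 ± 0.36), *Oasl2* (−0.44 ± 0.23), *Oas3* (−0.36 ± 0.55) and *Ifit3b* (−0.34 ± 0.37). *Oasl2* was at 9.44 and 10.7 CPM in controls and 7.38, 5.50 and 9.44 CPM in βiKO mice, so mouse 3 reached the level of a control. The sensor genes were near 0, with *Ifih1* at 34.5 and 36.4 CPM in controls and 34.1, 34.0 and 34.8 CPM in βiKO mice (−0.05 ± 0.08) and *Ddx58* at −0.02 ± 0.19. *Stat2*, *Irf9* and *Irf7* were at −0.28 ± 0.18, 0.13 ± 0.11 and −0.20 ± 0.36.

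All 5 MHC class I genes were above 0 without a call, from 0.05 (*Tap1*) to 0.36 (*Nlrc5*). *H2-K1* was at 335 and 327 CPM in controls and 346, 331 and 427 CPM in βiKO mice, and *B2m* was at 124 and 125 CPM and at 119, 145 and 164 CPM. In both genes mouse 3 was the highest and the groups overlapped. The log2 fold changes were 0.15 ± 0.12 for *H2-K1*, 0.12 ± 0.11 for *H2-D1* and 0.20 ± 0.13 for *B2m*. *Ifit1*, *Ifit3*, *Isg15*, *Bst2*, *Gbp2*, *Irgm1* and *Cxcl10* went from −0.07 to 0.21, and *Cd274* was at −0.27 ± 0.15. Without βiKO mouse 3, which had 110.0 CPM of B cell markers, 274 CPM of macrophage markers and 476 CPM of MHC class II genes, 24 members were below 0 and the median was −0.23. Of the marker lists, all 7 MHC class II, all 9 endothelial and 8 of 9 stromal genes were above 0 (medians 0.31, 0.29 and 0.29) and all 20 acinar genes below 0 (median −0.68), with none called. Also above 0 were 12 of 15 macrophage, 5 of 6 tested dendritic cell, 4 of 4 tested T and NK cell and 5 of 7 tested B cell markers. So were 4 of 4 δ and PP cell, 4 of 6 α cell and 4 of 8 duct markers. Of 10 β cell markers 7 were below 0, 6 of them at an unadjusted p below 0.05. None of these was called.

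The wider interferon pathway was read from further gene lists. Of 10 interferon genes, among them *Ifnb1* and *Ifng*, none passed the filter on low counts, 5 were at 0 in all 17 mice, and no gene had over 10 counts in a mouse. Their summed level was at most 0.349 CPM, and 0 in 5 of the 6 HFD-fed mice of the R192H table.

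The receptors and signalling genes (20 genes, all tested) held 1 called gene over the 6 comparisons, in the diet comparison of *Pax4* R192H mice, where 15.7% of all genes were called. On SCD, 16 of 20 were lower in *Pax4* R192H mice with no call, 3 at an unadjusted p below 0.05, and *Ifngr2*, a chain of the interferon-γ receptor, was at −0.55 ± 0.18. *Irf1*, a factor induced by interferon-γ, was at −0.29 ± 0.17 in that comparison. *Ifnar2*, a chain of the type I receptor, rose on HFD in *Pax4* R192H mice from 9.10 ± 1.14 to 14.9 ± 1.70 CPM (0.71 ± 0.17, adjusted p = 0.0116 in edgeR) and was the only called gene of this list in any comparison. *Ifnar1* and *Ifngr1* were between −0.22 and 0.21 in the 5 comparisons of the R192H table. In βiKO mice *Ifnar2* was at 0.33 ± 0.10 and *Ifngr1* at 0.34 ± 0.10, neither called.

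Of the genes of nucleic acid sensing beyond the members (20 genes, 18 tested in the R192H table and 19 in the βiKO table), 3 rose and 1 fell on HFD in *Pax4* R192H mice, where 15.7% of all genes were called. *Rnaseh2c*, a subunit of the RNase H2 enzyme that removes ribonucleotides from DNA, rose by 1.37 ± 0.23 there and was higher in *Pax4* R192H than in wildtype mice on HFD by 1.04 ± 0.22 (adjusted p = 0.031 in edgeR). *Rnaseh2a* (0.67 ± 0.19) and *Mavs*, the adaptor of RIG-I and MDA5 (0.56 ± 0.16), rose, and *Tlr3*, an endosomal RNA receptor, fell (−1.05 ± 0.33). *Ddx58* and *Ifih1* fell in the same comparison, but they and *Mavs* each lost their call in at least 1 removal of a mouse. Of the called genes of this list only *Rnaseh2c* was called in every removal, and none was called with the acinar covariate. None of this list was called in the remaining comparisons.

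For antigen processing (16 genes, all tested), *Psmb10*, an immunoproteasome subunit (0.63 ± 0.18), and the chaperone gene *Calr* (1.03 ± 0.23) rose on HFD in *Pax4* R192H mice, 2 of 16 against 15.7% of all genes called, and none was called elsewhere. The immunoproteasome genes *Psmb8* and *Psmb9* were at −0.50 ± 0.18 and −0.59 ± 0.21 in the SCD genotype comparison and at −0.56 ± 0.18 and −0.73 ± 0.21 in the wildtype diet comparison, without a call. *Tap2* was between −0.23 and 0.06 in every comparison. Among 9 further MHC class I genes (8 tested), *H2-T22* (1.01 ± 0.17) and *H2-M3* (0.51 ± 0.16) rose and *H2-Q4* (−0.67 ± 0.20) fell on HFD in *Pax4* R192H mice, again beside 15.7% of all genes called. *H2-T23*, which encodes the non-classical molecule Qa-1, was between −0.25 and 0.20 throughout.

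A list of 59 other interferon-stimulated genes had the same direction as the members on SCD: 51 of the 56 tested were lower in *Pax4* R192H than in wildtype mice, 19 at an unadjusted p below 0.05 (2.19% of all genes) and none called, with a median of −0.43. On HFD the median was −0.11, and *Ly6e*, a lymphocyte antigen that restricts viral entry, was higher (0.65 ± 0.12, adjusted p = 0.0158 in edgeR) while *Parp14* (−0.69 ± 0.17) and *Znfx1* (−0.67 ± 0.16) were lower and called. Of all genes, 2.28% were called in that comparison. *Ly6e* was also the only gene of these pathway lists with a called interaction (0.98 ± 0.17, adjusted p = 0.0448 in edgeR). Its term stayed between 0.89 and 1.11 in every alternative, but the call was lost with the replicate block (adjusted p = 0.113 in edgeR), with either marker covariate and in 11 of the 12 removals of a mouse, all but that of HFD-fed wildtype mouse 2. In wildtype mice 49 of 56 were lower on HFD, as were 48.9% of all genes, and *Samd9l* (−0.76 ± 0.14) and *Gbp9* (−1.54 ± 0.21) fell, where 0.371% of all genes were called. *Ifi205* was called too, with 1.85 ± 1.21 CPM on SCD and a level under that of 3 counts on HFD.

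In *Pax4* R192H mice 11 of these 56 genes were called between the diets, 4 upward and 7 downward, where 9.75% of all genes rose and 5.91% fell. *Ly6e* rose from 20.2 ± 1.29 to 41.0 ± 2.04 CPM and *Lgals3bp*, a secreted glycoprotein gene, from 53.2 ± 5.79 to 95.4 ± 8.58 CPM, while *Parp14* fell from 20.0 ± 2.84 to 9.75 ± 0.99 CPM and *Samd9l* from 35.3 ± 1.15 to 21.9 ± 3.60 CPM. In βiKO mice 36 of 58 were above 0, and none was called by edgeR, with 7 at an unadjusted p below 0.05. Of the 21 genes of the pathway lists called between the diets in *Pax4* R192H mice, 11 were called in every removal of a mouse, among them *Ly6e*, *Lgals3bp*, *Parp14*, *Samd9l*, *Rnaseh2c*, *Calr* and *H2-T22*, and none with the acinar covariate, where *H2-Q4* was at 0.03 ± 0.30. None of the pathway genes called in the genotype comparison on HFD or in the wildtype diet comparison was called in every removal. With the acinar covariate 0 of the 4 calls of the former and 2 of the 3 of the latter were kept.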

How the data were processed

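Total RNA of isolated islets was extracted with TRIzol, and libraries were made with a stranded total RNA kit and sequenced as paired reads by the authors. Per the labels and the study's methods, reads were aligned with STAR 2.7.1 to mm10 and quantified with RSEM 1.3.3. The authors deposited 2 tables of expected counts by gene, which were rounded to whole numbers here. The annotation release and the strand setting were not given in the sources used here, and gene length offsets were not used. Symbols were assigned to 65.8% and 66.7% of identifiers, and coordinates are those of GENCODE M21.

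Each table was filtered (filterByExpr, minimum count 10), normalised by TMM and fitted with edgeR 4.0.16 (quasi-likelihood, R 4.3.3) with 1 coefficient per group and no covariate. P-values were adjusted by the Benjamini-Hochberg method over all genes of the table. Called genes had an adjusted p below 0.05 and a log2 fold change beyond 0.5 in either direction. CPM values use TMM library sizes, and a standard error is the absolute log2 fold change divided by the square root of the F statistic. Mice are labelled as biological replicates and no 2 libraries of the same group were alike within counting error. The model was tested on simulated data. DESeq2 1.42.0, RLE size factors, no filter, a replicate block, covariates (mean log2 CPM of the macrophage or acinar markers), removal of the 2 largest genes, a fit of only the groups compared and removal of each mouse were alternatives. Promoter matches were counted on RefSeq windows, and 50-base words of the longest coding transcript of each member were looked for in all GENCODE M21 transcripts of other genes.

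The members and lists were chosen with earlier results of these data known. Values are given for every called member, for the 4 highest and 4 lowest log2 fold changes of a comparison, and for a list of members by role, with ranges where they were not called. Of the pathway lists, values are given for selected genes and for up to 4 called genes per list, and 1 selected gene is not reported here. Further lists covered interferons, receptors and signalling, nucleic acid sensing, antigen processing, other MHC class I genes, other interferon-stimulated genes and markers of macrophages, dendritic cells, T and NK cells, B cells, stromal, endothelial, acinar, duct and endocrine cells and MHC class II.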

Additional observations from a re-analysis of the deposited data

How the results depend on the processing

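Member calls depended on the low-count filter and the tool. Without the filter, 10 members were called on SCD, 2 in the genotype comparison on HFD, 1 in the interaction and 6 in the wildtype diet comparison, where the filtered edgeR fit called 0 in each. Of all genes, 0.655%, 3.21%, 1.78% and 2.32% were called in these fits. DESeq2 called 1, 1 and 3 in the SCD, HFD and wildtype diet comparisons (0.105%, 5.28% and 2.55% of all genes with an adjusted p). In the diet comparison of *Pax4* R192H mice, 5 became 3 with the macrophage covariate (13% of all genes) and 0 with the acinar covariate (0.146%), and leaving out 1 mouse gave 0 to 3 (8.38% to 11.2%). The βiKO median of 0.04 became −0.17 with the macrophage covariate, and leaving out 1 mouse gave −0.23 to 0.11. The cause was not tested. Among single members, 0 reversed a called direction, and with 1 mouse left out 836 of the values kept their call or, where not called, moved by less than their standard error, 76 moved by more and 23 lost a call. The 23 lost calls were all among the 5 called members, which had 6 removals each. The median in the diet comparison of *Pax4* R192H mice changed sign, from −0.21 to 0.09, without SCD mouse 1.

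Replicate numbers gave no sign of pairing in the R192H table. Deviations from the group mean correlated at −0.296 to 0.193 over 18 pairs of same-numbered mice and −0.309 to 0.402 over 36 differently numbered pairs. In the βiKO table same-numbered mice were at 0.0382 and 0.0729. With 2 controls, whose deviations mirror each other, these values cannot show or exclude pairing. With a replicate block the called genes went from 437 to 147 (genotype, HFD), 71 to 22 (diet, wildtype), 25 to 0 (interaction), 2996 to 2347 (diet, *Pax4* R192H) and 18 to 88 (βiKO), *Nlrc5* lost its call at a like log2 fold change (−1.29 ± 0.44, adjusted p = 0.0742 in edgeR), and the βiKO median was −0.22. With 2 or 3 mice a group, and few counts for members such as *Zbp1*, *Oas3* and *Isg15*, differences of the size of the standard errors were not detectable at this depth.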
